A study of Mus musculus with 24 samples.

Results

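Bone marrow stroma cultured with hematopoietic stem and progenitor cells (HSPC) was compared with the same kind of stroma cultured alone, as 3 libraries against 3, which are 6 of the 24 libraries in the series. The 6 were chosen by their titles, which name stroma in a co-culture setting either alone or with HSPC. Other labels of the co-culture group name the added cells hematopoietic stem cells (HSC), so whether stem cells or a wider progenitor fraction was added is not settled by the labels. Every library came from C57BL/6J mice, and all 6 stromal libraries are labelled in vitro. The titles of both groups carry Akt1, a kinase gene, without saying what was done to it, so an Akt1 change, if there was one, was shared by the controls. The labels give no age, no culture time, no oxygen level, no ratio of the added cells and no step that removed blood cells before RNA was taken. A parallel pair of groups holds marrow endothelium alone and with HSPC, 3 libraries each, likewise labelled with Akt1. The remaining 12 libraries, of cultured and in vivo endothelium and stroma, entered only the alternative fit named as such.

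Marrow stromal cells are mesenchymal cells that make collagen matrix and secrete factors on which blood stem cells depend, among them the chemokine CXCL12, the KIT ligand, angiopoietin-1 and pleiotrophin. Cells sense low oxygen through hypoxia-inducible factors (HIF): with oxygen present, prolyl hydroxylases mark HIF-alpha for destruction, and without it HIF binds a short core sequence in DNA and raises genes of glucose uptake, glycolysis, lactate export and pH control. A basal interferon tone keeps antiviral genes at a low level through factors such as STAT2 and IRF9. Immediate-early genes, such as FOS, are transcription factor genes that respond to growth factor and stress signals without new protein synthesis.

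Each file gives 1 expression value per gene symbol in FPKM (fragments scaled to transcript length and to the size of the library). Levels were compared between genes and between libraries as deposited, and the number of reads behind a value is unknown. The FPKM of a library summed to 1527800 to 1562500 in stroma alone and to 1616300 to 1663700 with HSPC. Comparability between libraries is therefore assumed. Between 12762 and 12829 genes reached 1 FPKM in stroma alone, and between 12797 and 12959 did with HSPC. Differences are given as log2(FPKM + 1) with HSPC minus alone, with the standard error (SE), a scale that understates the change of genes of low level. A gene is called when its Benjamini-Hochberg adjusted p in limma was under 0.05 over all 14017 genes tested. Whether the 3 replicates of either group were separate cultures or animals is not labelled, so the p-values reflect only how far the libraries spread, which may be technical. The libraries are bulk RNA, in which fewer cells of a type cannot be told apart from less RNA per cell.

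Replicate 2 with HSPC stood apart from its partners. Pearson's r over the log2(FPKM + 1) values of all 23879 gene symbols was 0.9978 to 0.9982 between libraries of stroma alone. Of these symbols 10192 to 10510 were listed at 0 in each stromal library, which raises every r given here. With HSPC it was 0.9975 between replicates 1 and 3, and 0.9947 and 0.9961 between replicate 2 and those libraries. Between the groups r was 0.9808 to 0.9819. Replicate 2 with HSPC was high in acute-phase and inflammatory genes: Saa3, an acute-phase protein gene, read 0, 152 and 13.5 FPKM with HSPC and 44.8, 41.3 and 40.1 FPKM alone. Cxcl5, a neutrophil-attracting chemokine gene, read 96.7, 810.3 and 130.0 FPKM with HSPC and 330.2, 365 and 373 FPKM alone. Neither gene was called: 1 co-culture library lay above stroma alone and the other two below. Replicate 2 of stroma alone was high in interferon genes, described with those genes.

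The libraries carried the RNA of mesenchymal stroma in both groups. Col1a1, the gene of the main chain of type I collagen, read 28851, 25736 and 24811 FPKM alone and 26755, 32453 and 29551 FPKM with HSPC, and Col1a2 and Col3a1 were not called either. Pdgfra and Pdgfrb, receptor genes of marrow mesenchyme, were present in all 6 libraries, at means of 188 ± 6.98 and 272 ± 15.1 FPKM alone (SD, n = 3). Lepr and Adipoq, which mark the leptin receptor-positive stroma of mouse marrow, were listed at 0 except for 0.51 FPKM of Lepr in 1 library with HSPC, and Thy1 stayed between 0.95 and 2.11 FPKM. Of the 16 stromal identity genes 2 were called higher and 9 lower with HSPC, with a median of -0.35, and 1 was higher without replicate 2 or 3 of either group. The 2 that were called lower at a change of at least 2-fold were Lum, a collagen-binding proteoglycan gene that went from 699 ± 3.78 to 142 ± 29.7 FPKM, and S100a4, a fibroblast calcium-binding protein gene that went from 3458 ± 304 to 929.9 ± 248 FPKM.

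Most genes differed between the groups by small amounts. Of 14017 tested genes 8551 (61%) were called, 3588 (25.6%) higher and 4963 (35.4%) lower with HSPC, and the median difference over all tested genes was -0.04. The balance depended on scaling: with libraries scaled on stromal genes, those of at least 10 FPKM in stroma alone, 4385 were higher and 4178 lower. Tested against a change of at least 2-fold, 757 genes (5.4%) were called, 439 (3.13%) higher and 318 (2.27%) lower. Of the 12755 genes with a mean of 1 FPKM or more in stroma alone, 8136 (63.8%) were called, 3219 (25.2%) higher and 4917 (38.5%) lower. The other 1262 tested genes averaged under 1 FPKM in stroma alone and are set apart below, because their RNA may be hematopoietic. Counts of called genes in a list are read against these shares. Markers of blood cells moved with the comparison: 19 of the 23 tested pan-leukocyte genes were higher with HSPC, with summed levels of 229 to 266 FPKM alone and 301 to 441 FPKM with HSPC, of which Arhgdib, a gene that stroma also expresses, made the largest part. Since 21 of the 23 averaged under 1 FPKM in stroma alone, where a gene can hardly be called lower, this count is a description only. Genes near 0 in stroma alone gave 0.025% to 0.034% of all FPKM alone and 0.155% to 0.187% with HSPC.

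**Figure D1:**
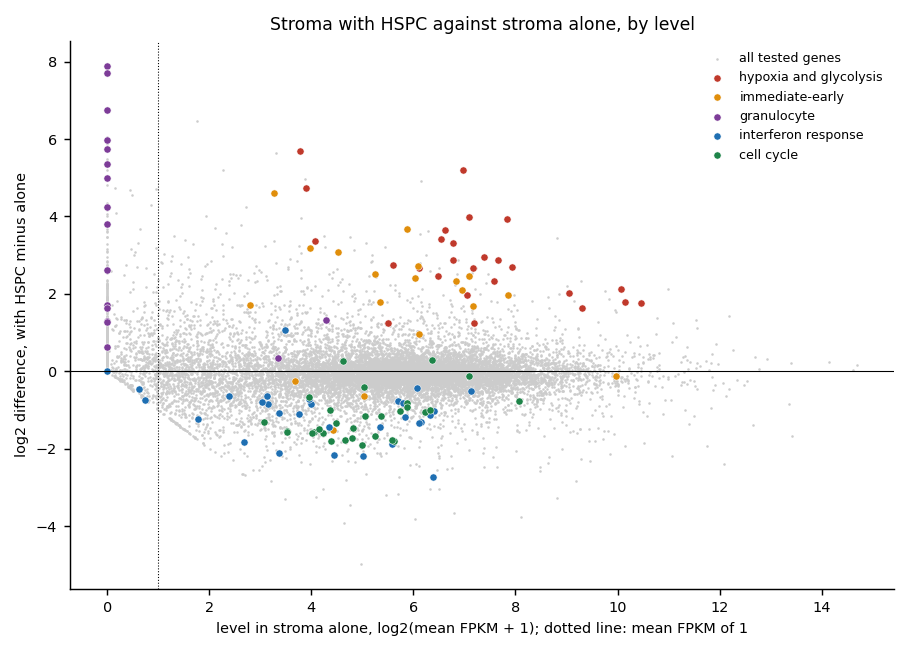
Each point is 1 tested gene, placed by its level in stroma alone, log2(mean FPKM + 1), on the horizontal axis and its log2 difference, HSPC minus alone, on the vertical axis, with 5 gene lists in colour and a dotted line at a mean of 1 FPKM. Granulocyte genes stand at the left edge, hypoxia and most immediate-early genes above 0 and interferon and cell cycle genes mostly below 0. Among expressed genes the differences run from -4.97 for Nppc to 6.48 for H19.

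Akt1 itself, named in the titles of both groups, read 649, 638 and 615 FPKM alone and 520.4, 462 and 497 FPKM with HSPC. The groups did not overlap, and Akt1 was lower with HSPC (log2 difference -0.36 ± 0.05, adjusted p = 3.12e-05). In endothelium it was higher with HSPC, by 0.71 ± 0.05, and the effects differed by -1.08 ± 0.06 (interaction adjusted p = 1.86e-07). Akt2 fell by 0.20 in stroma. Among 17 genes of the Akt and FoxO axis 7 were higher and 7 lower, and the median was -0.19. Gadd45a, a growth arrest gene, rose from 259 ± 14.6 to 787 ± 176 FPKM, and Irs1, the adaptor of the insulin and IGF-1 receptors, fell from 67.2 ± 1.24 to 25.3 ± 2.97 FPKM.

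Genes of the hypoxia response and of glycolysis rose together. All 26 members of that list were tested and all 26 were higher with HSPC, 25 of them by the test of at least 2-fold, and the median difference was 2.72 beside -0.04 over all tested genes. Egln3, Bnip3 and Car9, which are textbook targets of HIF, are shown with the 250 bases before their start, since the core sequence bound by HIF, ACGTG, can be looked up there. The sequences are from RefSeq on GRCm38.p6 (the authors' build was mm9): Egln3 at chr12:54203875-54204124 on the minus strand, Bnip3 at chr7:138909507-138909756 on the minus strand and Car9 at chr4:43506776-43507025 on the plus strand. Capitals mark ACGTG on either strand, which reads CACGT where it lies on the other strand, and the matches in Bnip3 overlap.
Egln3: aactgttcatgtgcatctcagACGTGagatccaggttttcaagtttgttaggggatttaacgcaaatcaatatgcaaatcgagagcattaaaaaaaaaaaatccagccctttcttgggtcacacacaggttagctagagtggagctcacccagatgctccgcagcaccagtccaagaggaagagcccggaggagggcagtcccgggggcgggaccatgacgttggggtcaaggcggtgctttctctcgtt
Bnip3: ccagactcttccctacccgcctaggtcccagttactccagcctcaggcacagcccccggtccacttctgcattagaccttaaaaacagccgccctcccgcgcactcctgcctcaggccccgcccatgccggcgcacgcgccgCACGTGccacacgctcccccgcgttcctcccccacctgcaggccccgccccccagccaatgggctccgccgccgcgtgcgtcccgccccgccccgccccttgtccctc
Car9: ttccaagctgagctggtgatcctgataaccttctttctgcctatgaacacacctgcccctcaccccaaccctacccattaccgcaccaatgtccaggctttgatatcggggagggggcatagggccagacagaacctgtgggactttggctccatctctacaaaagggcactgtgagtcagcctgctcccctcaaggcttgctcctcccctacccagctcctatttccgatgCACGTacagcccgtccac
Of the 25 list genes with a RefSeq entry 16 held ACGTG on either strand in at least 1 such window (17 of 34 windows, 50.0%), and 16.6% of all 32851 windows did. The match begins 229 bases before the start in Egln3, 107 and 108 in Bnip3 and 18 in Car9. A match is a description of the letters and was not tested as a binding site.

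The oxygen sensor led the list by size. Egln3, which encodes the prolyl hydroxylase PHD3, read 13.2, 13.8 and 11.0 FPKM alone and 577, 817 and 742 FPKM with HSPC. Every co-culture library was far above every library of stroma alone, and the mean was 56.2-fold higher (log2 difference 5.70 ± 0.11, adjusted p = 1.66e-11). Ero1l, an oxidase of disulfide bond formation in the endoplasmic reticulum, read 118, 129.9 and 128 FPKM alone and 3741, 5457 and 4746 FPKM with HSPC, 37.1-fold higher (5.19 ± 0.11, adjusted p = 3.1e-11). Replicate 1 was the lowest and replicate 2 the highest co-culture library of both genes. Car9, a surface carbonic anhydrase that buffers acid, read 232, 229 and 222 FPKM alone and 3447, 3372 and 3619 FPKM with HSPC, with libraries of a group within a narrow range, and was 15.3-fold higher (3.93 ± 0.08, adjusted p = 2.44e-11). Bnip3, a mitochondrial protein of mitophagy, read 134, 143 and 129 FPKM alone and 1943, 2329 and 2183 FPKM with HSPC, 15.9-fold higher (3.98 ± 0.10, adjusted p = 7.38e-11). None of these 4 genes had overlapping groups. Ankrd37, a small ankyrin repeat gene, rose by 4.74 ± 0.09 and Vegfa, the vascular growth factor, by 2.70 ± 0.08, to 1583 ± 187 FPKM.

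The glycolytic chain rose at each step from glucose entry to lactate export. Slc2a1, the glucose transporter GLUT1, read 97.6, 96.2 and 96.3 FPKM alone and 1016, 1490.3 and 1217 FPKM with HSPC, 12.8-fold higher (3.65 ± 0.11, adjusted p = 2.93e-10). Slc16a3, the lactate exporter MCT4, read 93.6, 94.1 and 87.5 FPKM alone and 968, 945 and 1029 FPKM with HSPC, 10.7-fold higher (3.40 ± 0.16, adjusted p = 1.26e-08). The groups of both transporters were well apart. Between them, Hk2, the inducible hexokinase, rose by 3.37 ± 0.09, Gpi1 by 2.89 ± 0.09, Pfkp by 2.68 ± 0.07, Pgk1 by 2.66 ± 0.04 and Ldha, which makes lactate from pyruvate, by 2.13 ± 0.05. Pdk1, a kinase that keeps pyruvate out of mitochondria, rose by 2.47 ± 0.05. Aldoc, an aldolase that is no member of the list, went from 8.28, 8.93 and 9.65 to 629, 326 and 579 FPKM, with replicate 2 the lowest co-culture library and still far above stroma alone. Gapdh and Eno1 were called higher as well, but both have near-identical copies in the genome among which reads may have been split, so their values are uncertain.

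Further genes among the 10 largest rises of expressed genes were Ndufa4l2, Mgarp, Ndrg2 and Selenbp1. Ndufa4l2, a mitochondrial protein related to a respiratory chain subunit, read 72.9, 71.7 and 65.1 FPKM alone and 2125, 2027 and 2271 FPKM with HSPC (4.92 ± 0.06, adjusted p = 1.25e-12), and was listed at 0 in all 6 endothelial co-culture libraries. Mgarp, a mitochondrial transport protein gene, read 3.25, 3.13 and 5.03 FPKM alone and 163, 171 and 181 FPKM with HSPC (5.19 ± 0.18). These groups did not overlap. Ndrg2 rose by 4.24 ± 0.22 and Selenbp1, a selenium-binding protein gene, by 4.01 ± 0.25.

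**Figure D2:**
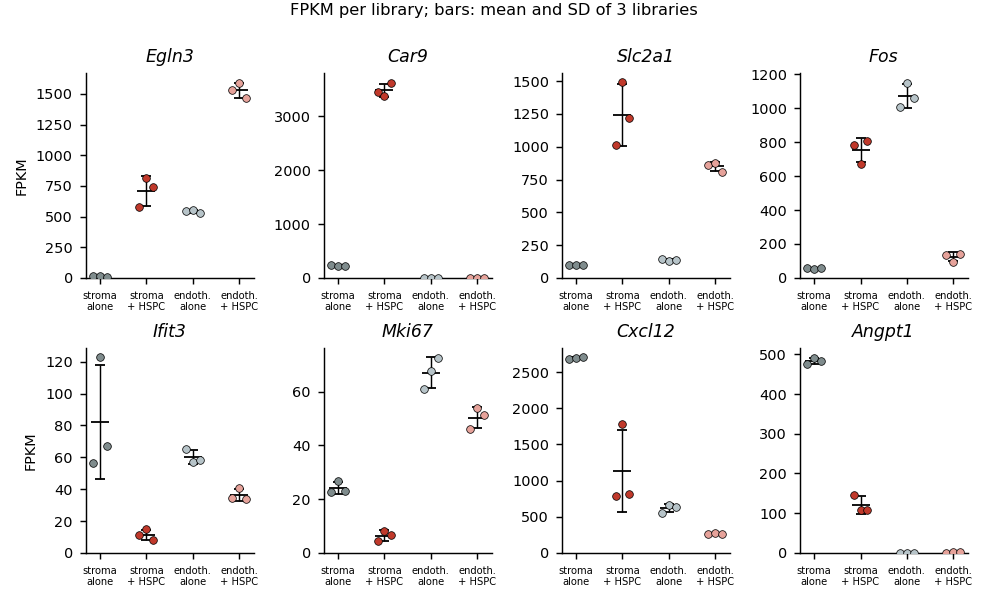
FPKM of 8 genes in each of the 12 co-culture libraries, 1 panel a gene on a linear axis that starts at 0, with a point for each library and bars for the mean and SD of 3 libraries. In stroma Egln3, Car9, Slc2a1 and Fos are higher with HSPC in all 3 libraries and Ifit3, Mki67, Cxcl12 and Angpt1 lower in all 3. In endothelium Fos is lower with HSPC, and Car9 and Angpt1 lie near 0 in both groups.

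Immediate-early genes were higher with HSPC in 15 of 19 members and lower in 2, with a median of 2.10. Fos, the partner of JUN in the AP-1 factor, read 59.0, 54.5 and 60.3 FPKM alone and 786, 674 and 806 FPKM with HSPC. All co-culture libraries lay far above all libraries of stroma alone (log2 difference 3.68 ± 0.13, adjusted p = 1.49e-09). Fosb read 7.89, 8.61 and 9.32 FPKM alone and 261, 199 and 241 FPKM with HSPC (4.60 ± 0.18, adjusted p = 2.43e-09), again without overlap. Atf3, a stress-induced factor gene, rose by 3.18 ± 0.15, Dusp1, a phosphatase that turns off MAP kinases, by 3.08 ± 0.10, and Klf4 and Klf2, zinc-finger factor genes, by 2.72 ± 0.11 and 2.50 ± 0.10. Jun, Junb and Jund rose by 2.46 ± 0.06, 2.34 ± 0.09 and 2.41 ± 0.09. Egr3 fell by 1.51 and Nr4a1 by 0.63, and Egr2 (-0.25 ± 0.20) and Cyr61 (-0.12 ± 0.09) were not called, so the list did not move as a whole.

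Interferon-response genes went down. Of 32 list genes 30 were tested, 27 were lower and 1, Ifi44, higher, with a median of -1.05, and 4 were lower by the test of at least 2-fold. Ifit3, Ifit1 and Isg15 are shown with the 250 bases before their start, where the core of the element bound by interferon-activated factors, GAAA followed after any 2 bases by GAAA, can be looked up. The sequences are from RefSeq on GRCm38.p6: Ifit3 at chr19:34583279-34583528 and Ifit1 at chr19:34640639-34640888 on the plus strand, and Isg15 at chr4:156200819-156201068 on the minus strand. Capitals mark matches on either strand, which read TTTC, 2 bases and TTTC where they lie on the other strand, and the 3 matches in Isg15 overlap each other.
Ifit3: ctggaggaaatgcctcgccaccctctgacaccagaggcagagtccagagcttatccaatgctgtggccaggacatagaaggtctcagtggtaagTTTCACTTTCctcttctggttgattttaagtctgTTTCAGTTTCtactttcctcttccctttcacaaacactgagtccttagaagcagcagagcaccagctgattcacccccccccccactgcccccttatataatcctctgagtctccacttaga
Ifit1: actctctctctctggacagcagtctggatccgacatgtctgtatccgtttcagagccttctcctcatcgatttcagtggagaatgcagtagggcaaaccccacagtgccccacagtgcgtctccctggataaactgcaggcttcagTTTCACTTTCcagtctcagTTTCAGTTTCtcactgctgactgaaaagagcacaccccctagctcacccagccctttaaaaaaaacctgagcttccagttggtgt
Isg15: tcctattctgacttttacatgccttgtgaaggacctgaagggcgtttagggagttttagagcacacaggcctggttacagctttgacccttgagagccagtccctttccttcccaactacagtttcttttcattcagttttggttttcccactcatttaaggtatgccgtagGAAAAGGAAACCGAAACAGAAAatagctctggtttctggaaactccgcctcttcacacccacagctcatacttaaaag
The motif stood in 12 of the 23 list genes with a RefSeq entry (12 of 27 windows, 44.4%) and in 2.98% of all 32851 windows. In the 3 genes shown the matches begin between 66 and 156 bases before the start. Here too a match describes the letters only. It was not tested as a binding site and was not related to the measured differences.

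Antiviral effectors carried the largest differences. Ifit3, an RNA-binding antiviral protein gene, read 56.3, 123 and 67.1 FPKM alone and 10.9, 14.7 and 7.90 FPKM with HSPC. Replicate 2 of stroma alone was the highest, yet the lowest library of stroma alone was still several times above the highest co-culture library (-2.73 ± 0.26, adjusted p = 3.38e-06), and without replicate 2 of stroma alone the difference was -2.40. Ifit1 read 17.4, 53.2 and 23.7 FPKM alone and 5.49, 6.08 and 4.56 FPKM with HSPC (-2.20 ± 0.30, adjusted p = 6.52e-05), and Isg15, a ubiquitin-like modifier, read 24.7, 56.8 and 38.2 FPKM alone and 14.8, 15.3 and 10.2 FPKM with HSPC (-1.45 ± 0.24, adjusted p = 0.000271). In both, the groups did not overlap and the same library of stroma alone was the highest; without it Ifit1 differed by -1.75. The guanylate-binding protein genes Gbp3 and Gbp2 fell by 2.16 and 1.87, and the RNA sensors Ddx58 and Ifih1 by 1.13 and 0.79. Factors that drive such genes were lower too: Irf1, Irf7, Stat2 and Irf9 fell by 1.04, 1.11, 0.76 and 0.43. Summed over the list, levels were 857 to 1221 FPKM alone and 407 to 546 FPKM with HSPC, and leaving out any 1 library left 25 to 27 members lower.

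Of the 13 genes of antigen presentation on MHC class I, 8 were lower and 2 higher, with a median of -0.43. Tapbp, which loads peptides on class I molecules, read 556, 519.9 and 529 FPKM alone and 173, 207 and 160.3 FPKM with HSPC (-1.57 ± 0.08), and Psmb10, an immunoproteasome subunit, read 55.7, 63.7 and 60.6 FPKM alone and 16.5, 18.6 and 18.2 FPKM with HSPC (-1.70 ± 0.06). Neither gene had overlapping groups. The class I heavy chains went the other way: H2-K1 rose from 256 ± 14.3 to 546 ± 62.8 FPKM (1.09 ± 0.08) and H2-D1 by 0.30 ± 0.11, though class I genes are similar enough in sequence to share reads. The number lower was 5 without stroma alone replicate 3 and also without replicate 1 or replicate 3 with HSPC, and the number higher was 1 without stroma alone replicate 1 or 2 or without replicate 2 with HSPC.

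Cell cycle genes were lower with HSPC in 27 of 30 members, 13 of them by the test of at least 2-fold, with a median of -1.33. Mki67, the proliferation marker Ki-67, read 22.5, 26.7 and 23.1 FPKM alone and 4.45, 8.24 and 6.66 FPKM with HSPC (-1.78 ± 0.16, adjusted p = 1.98e-06), and Top2a, the topoisomerase of dividing cells, read 41.6, 54.2 and 48.3 FPKM alone and 9.54, 16.0 and 14.2 FPKM with HSPC (-1.80 ± 0.15, adjusted p = 1.54e-06). Both sets of groups were apart by more than 2-fold. Genes of mitosis and of DNA replication fell alike: Plk1 by 1.81, Cdc20 by 1.73 and Ccna2 by 1.78, and the helicase genes Mcm5 by 1.91, Mcm3 by 1.03 and Mcm7 by 0.41. Ccnd1, the G1 cyclin that growth factors induce, went from 268 ± 9.76 to 158 ± 8.19 FPKM. E2f1 was the 1 member called higher (0.28 ± 0.07), and Pcna (-0.13 ± 0.06) and Ccne2 (0.26 ± 0.45) were not called.

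Factors by which stroma is known to hold blood stem cells split. Of 28 niche factor genes 23 were tested, 8 were higher and 10 lower, and their median of 0.00 ranged from -0.09 to 0.04 over the alternatives. The major retention and adhesion factors were among those lower. Cxcl12, the chemokine that retains stem cells in marrow, read 2685, 2698 and 2706 FPKM alone and 793, 1781 and 814 FPKM with HSPC. Replicate 2 with HSPC lay far above its partners but below stroma alone (-1.36 ± 0.24, adjusted p = 0.000398), and without that library the difference was -1.75. Vcam1, the adhesion molecule bound by the integrin VLA-4, read 749, 745 and 776 FPKM alone and 191, 307 and 173 FPKM with HSPC (-1.80 ± 0.16, adjusted p = 2.26e-06). Angpt1, the ligand of the TIE2 receptor, read 475, 491 and 484 FPKM alone and 147, 108 and 109 FPKM with HSPC (-2.00 ± 0.18, adjusted p = 2.86e-06). Ptn, the heparin-binding growth factor pleiotrophin, read 2075, 2094 and 2250.5 FPKM alone and 378, 682 and 408 FPKM with HSPC (-2.18 ± 0.17, adjusted p = 6.08e-07). In none of these 4 did the groups overlap.

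Apart from Nov, other secreted factors moved less or upward. Kitl, the ligand of the stem cell receptor KIT, read 334, 339.8 and 337 FPKM alone and 300.5, 227 and 252 FPKM with HSPC, a log2 difference of -0.38 ± 0.08 (adjusted p = 0.00121). Nov, a matrix-associated CCN protein gene, read 738, 849 and 769 FPKM alone and 194, 544 and 214 FPKM with HSPC (-1.47 ± 0.29), with replicate 2 again the highest. The falls of Kitl and Nov were smaller than that of Angpt1 or Vcam1, but Nov fell about as much as Cxcl12 (-1.36). Il7, the lymphoid cytokine, fell by 0.92, Igf1 by 0.83 and Bmp4 by 0.77. Spp1, osteopontin, a matrix protein that limits stem cell number, read 1697, 1727 and 1812 FPKM alone and 4390.4, 4059 and 5277 FPKM with HSPC (1.38 ± 0.09, adjusted p = 2.51e-07), and all co-culture libraries were above all others. Il11 and Lif, cytokines that signal through gp130, rose by 1.33 ± 0.29 and 1.20 ± 0.26, from means of 1.70 ± 0.218 and 2.89 ± 0.581 FPKM. Flt3l rose by 0.91 ± 0.10, Angptl2 by 0.80 ± 0.09, Tgfb1 by 0.48 ± 0.06 and Csf1, the macrophage growth factor, by 0.24 ± 0.08. Thpo, thrombopoietin, was not called (0.44 ± 0.42), and Il6 was listed at 0 in all 6 libraries.

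**Figure D3:**
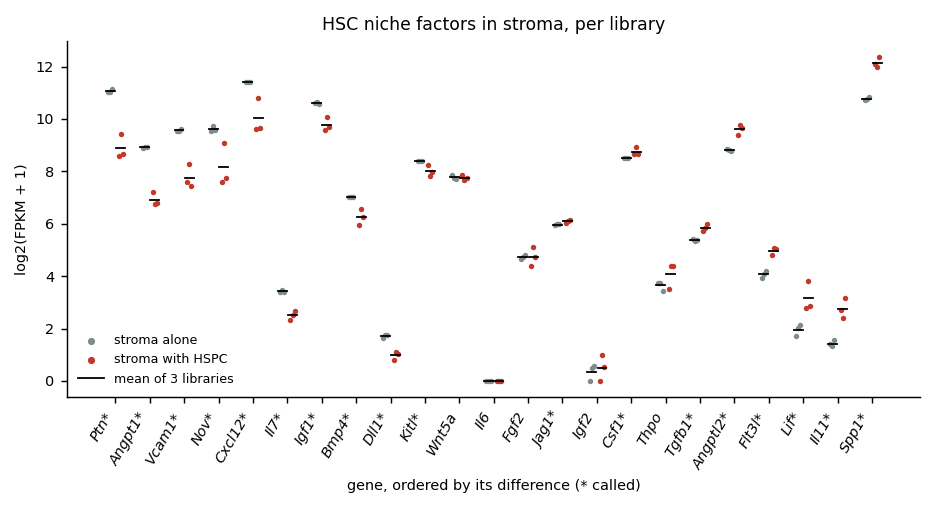
Level, log2(FPKM + 1), of the 23 tested niche factor genes in each library of stroma alone and with HSPC, with lines for the means of 3 libraries and a star for called genes, ordered by the difference between the means. Ptn, Angpt1, Vcam1, Nov and Cxcl12 at the left show the largest falls and Spp1, Il11 and Lif at the right the largest rises, and 1 library with HSPC lies above its partners in Cxcl12, Nov and Vcam1.

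Genes of the leptin receptor-positive stromal program were lower in 12 of the 17 tested members and higher in 3, with a median of -0.45. Ebf1 and Ebf3, factors that keep marrow stroma from turning to bone, fell by 0.98 and 0.87, and Foxc1, a factor of CXCL12-rich cells, fell by 0.30. Gas6, a ligand of TAM receptors, read 544, 519 and 517 FPKM alone and 257, 453 and 267 FPKM with HSPC, where replicate 2 came close to stroma alone. Igfbp5, which binds insulin-like growth factors in the matrix, was the largest rise among members that stroma alone expressed: it read 941, 826 and 821 FPKM alone and 4013, 2938 and 4092 FPKM with HSPC (2.08 ± 0.26, adjusted p = 3.4e-05), and Igfbp4 rose by 0.70 ± 0.05. Hp, haptoglobin, was listed at 0 in stroma alone and read 3.32, 5.91 and 5.40 FPKM with HSPC.

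Osteoblast and smooth muscle genes were mostly lower, and adipocyte genes were mixed. In the osteoblast list 8 of 12 tested members were lower and 2 higher, with a median of -0.61: Bmp2, a bone-inducing signal, read 42.1, 36.6 and 37.7 FPKM alone and 12.6, 8.98 and 11.1 FPKM with HSPC (-1.75 ± 0.10, adjusted p = 8.49e-08), and Omd, a bone proteoglycan gene, fell by 1.19. The 2 higher were Spp1 and Runx2, the factor that opens the line, which rose by 0.83 ± 0.08. Among markers of mature osteoblasts and osteocytes Sp7, Bglap, Ibsp and Sost were listed at 0 in all 6 libraries, whereas Dmp1 was called lower (-1.59). The number lower was 5 in a fit of the 6 stromal libraries alone and with a filter at 5 FPKM. In the smooth muscle and pericyte list 7 of 11 tested members were lower and 2 higher, with a median of -0.58. Acta2, smooth muscle actin, read 537, 664 and 664 FPKM alone and 103, 194 and 106 FPKM with HSPC (-2.26 ± 0.21, adjusted p = 3.47e-06), and Tagln and Myl9, further contractile genes, fell by 2.06 each. The groups of all 3 were apart. Notch3, a receptor of pericytes, went against them, from 3.09, 3.02 and 3.12 to 18.4, 44.5 and 28.1 FPKM (2.86 ± 0.22, adjusted p = 7.57e-07), and Cspg4, the pericyte proteoglycan NG2, rose by 1.18 ± 0.11. Among 10 tested adipocyte genes 5 were higher and 2 lower, or 1 lower without stroma alone replicate 1 or without replicate 3 with HSPC. Dgat2, the last enzyme of triglyceride synthesis, read 36.8, 36.5 and 31.4 FPKM alone and 266, 213 and 285 FPKM with HSPC (2.82 ± 0.10, adjusted p = 1.43e-09), whereas Pparg, the master regulator of fat cells, was not called (-0.21 ± 0.11) and Adipoq, Plin1 and Cfd were listed at 0.

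Matrix genes were higher more often than lower: of 32 members 15 were higher and 5 lower, and the median was 0.23. Fn1, fibronectin, read 4852, 4647 and 4488 FPKM alone and 11596, 12377 and 13555 FPKM with HSPC (1.42 ± 0.08, adjusted p = 3.46e-08). Lox, which cross-links collagen and elastin, read 2987, 2952 and 2987 FPKM alone and 7448, 7055 and 7923 FPKM with HSPC (1.33 ± 0.09, adjusted p = 3.47e-07). Both rose in all 3 libraries, from levels that were already high. Loxl2 rose by 1.64 ± 0.18, Fbln2, a basement membrane protein gene, by 1.98 ± 0.08, Vcan by 1.12 ± 0.15 and Tnc by 1.08 ± 0.12, whereas Lum fell by 2.32, Postn by 0.84 and Dcn, decorin, by 0.76. The collagen prolyl hydroxylases P4ha1 and P4ha2, counted in the hypoxia list, rose by 1.64 ± 0.07 and 3.31 ± 0.05. Without replicate 3 with HSPC 3 members were lower, and the number lower was 2 with a pseudocount of 0.1, 3 with a weight per group and 8 after quantile normalization.

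Among 22 tested matrix proteases and inhibitors 11 were higher and 4 lower. Mmp11 read 156, 159 and 155 FPKM alone and 662, 548 and 703 FPKM with HSPC (2.01 ± 0.08, adjusted p = 3.44e-09), and its groups were apart. Mmp3, stromelysin, read 73.7, 65.2 and 63.2 FPKM alone and 213, 1245 and 324 FPKM with HSPC (2.70 ± 0.52, adjusted p = 0.000889), and the difference was 1.95 without replicate 2. Mmp14, Timp2 and Mmp2, a membrane protease, an inhibitor and the gelatinase they act on together, fell by 0.73, 0.65 and 0.52.

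Signalling pathways gave mixed counts. Of 13 tested Wnt genes 9 were lower and 2 higher, with a median of -0.93. Axin2, a feedback target of Wnt signalling, read 6.94, 6.57 and 6.95 FPKM alone and 1.98, 3.12 and 1.79 FPKM with HSPC (-1.27 ± 0.13, adjusted p = 6.48e-06), and Nkd1, another feedback gene, fell by 0.83. The secreted antagonists Dkk2 and Sfrp1 were lower as well, Dkk2 from 41.5, 43.7 and 43.5 to 4.58, 4.91 and 2.30 FPKM (-3.20 ± 0.20, adjusted p = 1.06e-07) and Sfrp1 fell by 2.13. The agonists parted: Rspo2 read 249.7, 264 and 269 FPKM alone and 70.4, 168 and 81.3 FPKM with HSPC, while Rspo3 read 84.6, 90.6 and 88.5 FPKM alone and 214, 202 and 197 FPKM with HSPC. Of 12 tested Notch genes 7 were higher and 1, the ligand Dll1, lower. Of the 12, 5 averaged under 1 FPKM in stroma alone, where a gene can hardly be called lower. Besides Notch3, the ligand Jag2 was listed at 0 alone and read 1.58, 2.38 and 1.83 FPKM with HSPC, and the target Hey1 rose by 1.07 ± 0.10. In a fit of the 6 stromal libraries alone 4 Notch genes were higher, and 2 were lower without replicate 3 with HSPC.

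Of 23 TGF-beta and BMP genes 8 were higher and 8 lower, and the median of -0.16 was 0.06 without replicate 1 and 0.05 without replicate 2 with HSPC. The TGF-beta ligands fell, Tgfb2 from 508 ± 23.6 to 194 ± 8.76 FPKM and Tgfb3 from 281 ± 2.75 to 131 ± 0.582 FPKM, with the exception of Tgfb1. Some target genes were higher: Ctgf read 139, 142 and 151 FPKM alone and 528, 323 and 591 FPKM with HSPC (1.69 ± 0.17), Tgfbi rose by 1.68 ± 0.12 and Pmepa1 by 1.64 ± 0.20. Id3, a BMP target, fell by 1.47, and Id1 (0.29 ± 0.12) was not called. Fst, follistatin, an activin antagonist, fell by 1.73, and Thbs1, which activates latent TGF-beta, by 1.17. Of 10 insulin-like growth factor genes 4 were higher and 1, Igf1, lower.

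Counts of inflammatory genes moved with replicate 2 with HSPC, the library that stood apart in Saa3 and Cxcl5. Of 14 tested chemokine genes 4 were lower and 1 higher, and without that library 9 were lower. Ccl2, which draws monocytes, read 227, 278 and 303 FPKM alone and 58.6, 165 and 75.1 FPKM with HSPC (-1.56 ± 0.29, adjusted p = 0.000593). Cxcl10, an interferon-induced chemokine, read 27.7, 34.9 and 21.2 FPKM alone and 2.74, 6.13 and 5.52 FPKM with HSPC (-2.35 ± 0.26, adjusted p = 1.38e-05). In both, all co-culture libraries were below stroma alone. The 1 higher was Cxcl2, listed at 0 in 4 of the 6 libraries and no longer called in most of the fits without a library. Of 21 tested NF-kB and cytokine response genes 7 were higher and 6 lower, and 10 were lower without replicate 2. Ier3 rose by 2.67 ± 0.18 and Nfkbiz by 1.31 ± 0.14, while Nfkbia, the inhibitor of NF-kB, fell by 0.71 and Ripk2 by 1.17. Of 10 tested complement and acute-phase genes 2 were higher and 2 lower, with 6 lower without replicate 2 and 1 lower without replicate 3. C3 read 198, 168 and 176 FPKM alone and 41.2, 325 and 78.4 FPKM with HSPC, and it was not called.

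Prostaglandin genes were higher in 5 of 9 tested members and lower in 3. Ptgs2, the inducible cyclooxygenase, read 13.5, 25.4 and 26.5 FPKM alone and 119, 146 and 142 FPKM with HSPC (2.64 ± 0.24, adjusted p = 2.43e-06). Ptgis, prostacyclin synthase, read 7.14, 5.82 and 6.71 FPKM alone and 46.7, 43.1 and 57.1 FPKM with HSPC (2.72 ± 0.11, adjusted p = 2.96e-09). These rose in all 3 libraries, and Ptgs1, the constitutive enzyme, fell by 0.68.

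Stress responses other than heat shock were mostly up. In the amino acid stress response, which runs through ATF4, 12 of 15 members were higher and 2 lower, and the median was 0.84. Vldlr, a lipoprotein receptor gene, rose by 1.85 ± 0.05, Chac1, which degrades glutathione, by 1.36 ± 0.13, and Trib3 by 1.18 ± 0.06. Ddit3, the factor CHOP, read 559.8, 628 and 602 FPKM alone and 1336, 1208 and 1279 FPKM with HSPC (1.09 ± 0.08, adjusted p = 6.18e-07). In the unfolded protein response 5 of 8 were higher and 2 lower, and Hspa5, the chaperone BiP, went from 2181 ± 57.0 to 5235 ± 648 FPKM. Of 8 Nrf2 and metallothionein genes 7 were higher: Hmox1, heme oxygenase, read 541, 574 and 573 FPKM alone and 1854, 2036 and 2007 FPKM with HSPC (1.80 ± 0.06, adjusted p = 1.43e-09), and Mt1 and Mt2, which bind zinc and copper, rose by 1.88 ± 0.12 and 2.32 ± 0.44. Heat shock genes were higher in 4 of 8 members and lower in 2, with a median of 0.08. Dnajb1 rose by 0.82 ± 0.07 and Hsph1 fell by 0.45, and Hspa1a and Hspa1b, nearly identical copies, are uncertain.

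Sterol synthesis was lower by small amounts. Of 23 tested genes 17 were lower and 0 higher in limma (at an unadjusted p under 0.05, 18 lower and 0 higher), with a median of -0.38, and none passed the test of at least 2-fold. Acat2 read 64.3, 77.6 and 73.2 FPKM alone and 27.2, 40.0 and 29.6 FPKM with HSPC (-1.14 ± 0.12, adjusted p = 9.41e-06), and Dhcr7, the last enzyme of the pathway, fell by 0.90. Acat2 and Dhcr7 had no overlap between the groups. Without replicate 2 with HSPC 1 member was called higher. Of 10 fatty acid synthesis genes 6 were lower and 4 higher. Scd1, which desaturates fatty acids, fell by 1.02, and Me1, which supplies NADPH, rose by 1.02 ± 0.06.

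Genes outside the lists were among the largest differences of expressed genes. H19, an imprinted long noncoding RNA, read 2.28, 2.49 and 2.37 FPKM alone and 214, 385 and 328 FPKM with HSPC, 129.8-fold higher (6.48 ± 0.23, adjusted p = 1.26e-09). Igf2, its imprinted neighbour, stayed under 1 FPKM in all 6 libraries. Nppc, C-type natriuretic peptide, read 28.0, 35.5 and 28.1 FPKM alone and was listed at 0 in all 3 libraries with HSPC. The angiotensin receptor genes Agtr2 and Agtr1a went from 436, 467 and 451 to 32.8, 77.1 and 37.3 FPKM (-3.28 ± 0.23) and from 65.5, 65.5 and 61.4 to 2.56, 5.22 and 3.41 FPKM (-3.82 ± 0.16). Prokr1, a prokineticin receptor gene, went from 26.1, 23.0 and 22.7 to 0.850, 0.770 and 0.380 FPKM (-3.91 ± 0.12). None of these groups overlapped. Ldb2, a cofactor of LIM-domain factors, fell by 3.78, Lrrn3 by 3.67, Ackr4, a scavenger receptor of chemokines, by 3.45, and Nptx1 by 3.26. Ugt1a9, 1 of a family of genes that share exons, was listed at 0 with HSPC and is uncertain for that reason.

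Genes near 0 in stroma alone included the genes of blood cells. Of 23879 gene symbols 11080 averaged under 1 FPKM in stroma alone, 1262 of these passed the filter, and 809 of the 1262 were listed at 0 in all 3 libraries of stroma alone. With HSPC 369 (29.2%) were called higher and 46 (3.65%) lower. Since a gene at this level can hardly be called lower, and many passed the filter only through the libraries with HSPC, these counts describe the genes and support nothing. Of the 369, 67 averaged 5 FPKM or more with HSPC.

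The highest were genes of developing granulocytes. S100a8, a subunit of the calcium-binding complex calprotectin, was listed at 0 in all 3 libraries alone and read 295, 212 and 212 FPKM with HSPC. Elane, neutrophil elastase, was listed at 0 in all 3 libraries alone and read 121, 93.4 and 109.7 FPKM with HSPC. Mpo, myeloperoxidase, read 62.1, 63.0 and 61.0 FPKM and Prtn3, proteinase 3, 55.2, 54.0 and 48.4 FPKM, both from a listed 0. These are genes of promyelocytes and later granulocytes, and each was present in all 3 co-culture libraries. Camp and Ngp, genes of secondary granules, read 18.2, 14.4 and 8.03 FPKM and 41.5, 32.6 and 21.3 FPKM, and Ltf 1.46, 1.84 and 1.15 FPKM. Of the 22 granulocyte genes 17 were tested and 15 were higher. The other two, Lcn2 and Mmp9, are expressed by stroma alone and were not called, and Mmp8, Cd177, Retnlg, Itgb2l and Padi4, among them genes of mature neutrophils, were below the filter. The summed level of the list was 26.4 to 29.9 FPKM alone and 744 to 954 FPKM with HSPC.

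Other blood lines were fainter. Ptprc, the leukocyte antigen CD45, read 0.360, 0.470 and 0.330 FPKM with HSPC, Spi1, the myeloid factor PU.1, 3.78, 2.42 and 3.17 FPKM, and Tyrobp, a signalling adaptor of myeloid cells, 13.8, 10.9 and 11.1 FPKM, all from a listed 0. The values of CD45 were under 1 FPKM and those of granule proteins far higher in the same libraries. Of 27 monocyte and macrophage genes 16 were tested, 9 were higher and 4, Csf1r, Cd14, Msr1 and Gpnmb, lower, of which 2 were lower without stroma alone replicate 1. C1qa, C1qb, C1qc, Mrc1 and Emr1, which mark macrophages, were below the filter. Some basophil and eosinophil genes were present: Mcpt8 read 9.70, 10.3 and 10.5 FPKM, Prg2 20.0, 16.7 and 17.9 FPKM and Prss34 2.65, 3.31 and 3.82 FPKM. Of the 16 mast cell, basophil and eosinophil genes 10 were below the filter, and 11 were listed at 0 in all 3 libraries with HSPC. Pf4, a platelet chemokine gene, read 4.51, 2.79 and 4.28 FPKM. The globins, Slc4a1 and Alas2, which mark red cell precursors, were below the filter, as were Cd3e, Cd79a and Rag1 of lymphocytes. Of the stem and progenitor genes, Myb read 2.87, 2.36 and 2.88 FPKM with HSPC, Kit read 0, 0.310 and 0.350 FPKM and was not called, and Cd34, Meis1, Mecom, Runx1 and Procr were expressed by stroma alone already.

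The remaining blood lists gave these counts with HSPC, again as a description. Of 6 tested mast cell, basophil and eosinophil genes 5 were higher, and of 16 tested stem and progenitor genes 8 were higher and 2, Meis1 and Hoxa9, lower. Megakaryocyte genes were higher in 3 and lower in 2 of 11, and both tested lymphoid genes, Lck and Nkg7, were higher. The osteoclast enzyme gene Acp5 and 2 further of 6 osteoclast genes were higher. Among 4 tested erythroid genes the carbonic anhydrase gene Car2 was the 1 called, and 2 were called without replicate 1 with HSPC. Of 10 tested dendritic cell and MHC class II genes 2 were higher and 2 lower. That list was unstable: 0 were lower without stroma alone replicate 3, 4 without endothelium alone replicate 2, and 1 was higher without stroma alone replicate 1 or 2 or replicate 3 with HSPC. In a fit of the 6 stromal libraries alone 12 pan-leukocyte and 5 monocyte genes were higher, in place of 19 and 9.

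**Figure D4:**
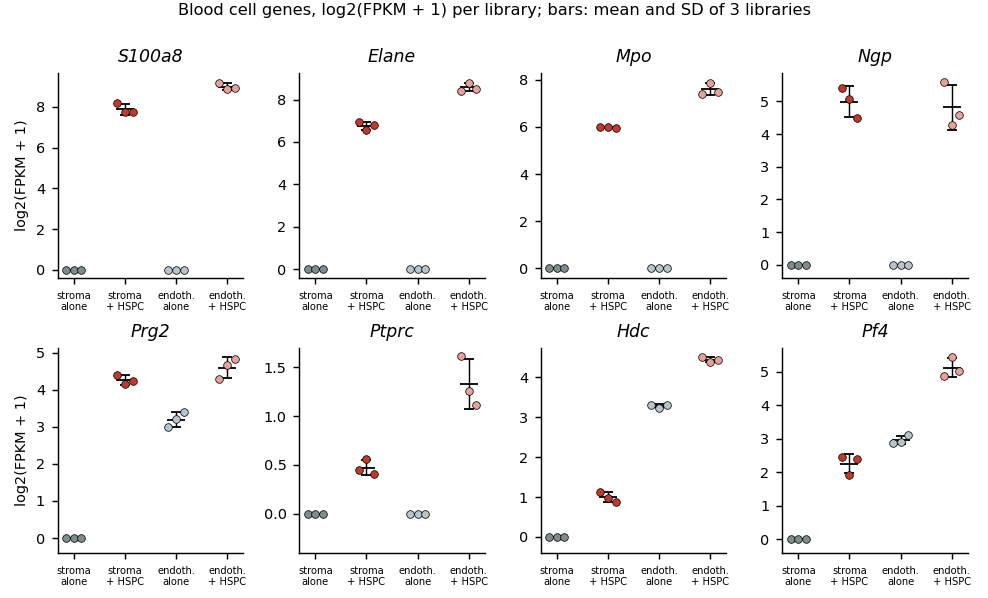
Level, log2(FPKM + 1), of 8 blood cell genes in each of the 12 co-culture libraries, with a point for each library and bars for the mean and SD of 3. In stroma all 8 are at 0 in the 3 libraries alone and above 0 in the 3 libraries with HSPC, and the granulocyte genes S100a8, Elane and Mpo are higher in endothelium with HSPC than in stroma with HSPC.

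The 67 genes were set beside the endothelial libraries, which are separate. Of the 67 genes, 46 were near 0 in endothelium alone too, and 29 of these averaged 1 FPKM or more in endothelium with HSPC. Of the 46 genes 28 were called higher in endothelium with HSPC. Among the genes near 0 that were called higher in stroma at any level, 199 were near 0 in endothelium alone too. Of these 199 genes 121 were called higher in endothelium with HSPC. Genes near 0 in both groups alone passed the filter largely through libraries with HSPC, so these counts are a description only. The share among all tested genes near 0 in both was not counted. Of all 1262 tested genes near 0 in stroma alone 487 (38.6%) were called higher in endothelium with HSPC, but these include genes that endothelium alone expresses. Of 17 tested granulocyte genes the effect in stroma was below that in endothelium in 12 and above it in 1. Elane averaged 383 ± 53.9 FPKM in endothelium with HSPC and 108 ± 13.8 FPKM in stroma with HSPC (interaction -1.82 ± 0.15, adjusted p = 2.11e-06), and S100a8 513 ± 65.0 and 240.1 ± 47.9 FPKM (-1.10 ± 0.17). Camp averaged 9.78 ± 2.55 and 13.6 ± 5.15 FPKM, and its interaction of 0.39 ± 0.34 was not called (adjusted p = 0.345). Prg2 averaged 8.19 ± 1.25 FPKM in endothelium alone and 23.4 ± 4.57 FPKM with HSPC, a smaller rise than that in stroma (interaction 2.86 ± 0.20). The remaining 17 of the 46 stayed under 1 FPKM in endothelium with HSPC. Picked from these after their values were seen, Gsg1l read 28.9, 21.2 and 36.2 FPKM in stroma with HSPC, Fibcd1 20.6, 13.9 and 20.4 FPKM, Cacna1h, a calcium channel gene, 10.6, 25.7 and 16.6 FPKM and Cox4i2, a lung-type isoform of a cytochrome oxidase subunit that low oxygen induces, 8.79, 14.0 and 11.4 FPKM. Kctd16 and Gpr35, among the 10 largest rises of genes near 0, were likewise higher in stroma with HSPC (35.3, 48.5 and 43.6 and 33.4, 32.3 and 42.3 FPKM) than in endothelium with HSPC (means of 1.10 ± 0.188 and 2.69 ± 0.259 FPKM, SD), with interactions of 4.36 ± 0.16 and 3.32 ± 0.15. Whether the RNA of any such gene came from the added cells or from the stroma was not tested.

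Endothelial genes were few and low in these cultures. Of 20 endothelial identity genes 9 were called higher and 1, Stab2, lower, and their median was 0.31. Since 13 of the 20 averaged under 1 FPKM in stroma alone, where a gene can hardly be called lower, these counts are a description only. Their sum was 46.9 to 52.2 FPKM in stroma alone and 112 to 155 FPKM with HSPC, beside 21806 to 25242 FPKM in the endothelial co-culture libraries. Plvap, a diaphragm protein of fenestrated vessels, read 3.53, 3.09 and 3.36 FPKM alone and 53.8, 54.1 and 58.6 FPKM with HSPC (3.71 ± 0.07, adjusted p = 7.92e-12). It made up a large part of the sum. Pecam1 was listed at 0 in all 3 libraries alone and read 0.920, 1.76 and 2.08 FPKM with HSPC, and Cdh5 read 0, 1.17 and 1.56 FPKM. Tek, Cldn5, Emcn, Robo4, Sox17 and Mmrn2 were listed at 0 in all 6 stromal libraries. The number higher was 4 in a fit of the 6 stromal libraries alone, and the number lower was 3 without replicate 2 with HSPC and 0 without any 1 of the other stromal libraries except stroma alone replicate 3. What part of these values came from endothelial cells in the cultures was not tested.

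The difference between libraries with HSPC and alone was another in endothelium than in stroma for many genes. In endothelium 6813 of 14017 genes (48.6%) were called, 3962 (28.3%) higher and 2851 (20.3%) lower. After quantile normalization 3121 were higher and 3742 lower there. The effect in stroma minus that in endothelium was called above 0 in 2951 genes (21.1%) and below 0 in 5045 (36%). With scaling on stromal genes these were 3863 and 3954. The stromal and endothelial comparisons share no library. Granulocyte genes summed to 1850 to 2100 FPKM in endothelium with HSPC and to 744 to 954 FPKM in stroma with HSPC. What part of any effect was RNA of the added cells was not tested. Immediate-early genes showed the widest gap: their median was 2.10 in stroma and -0.99 in endothelium, 0 of 19 were higher in endothelium and 11 were lower, and the effect was above that in endothelium for all 19. Fos averaged 1074 ± 72.0 FPKM in endothelium alone and 125 ± 26.4 FPKM with HSPC, against 57.9 ± 3.01 and 755 ± 71.5 FPKM in stroma (interaction 6.80 ± 0.19, adjusted p = 1.83e-09). Stroma alone was low and endothelium alone high, and with HSPC the order turned. Hypoxia and glycolysis genes were higher in both, 26 of 26 in endothelium with a median of 1.70, and the effect in stroma was the larger in 21 of 26 and the smaller in 0. Car9 averaged 4.21 ± 0.400 FPKM in endothelium alone and 5.44 ± 0.805 FPKM with HSPC, with an interaction of 3.63 ± 0.12, whereas for Slc16a3 it was -0.22 ± 0.22 (adjusted p = 0.418). Egln3 started from 543 ± 12.4 FPKM in endothelium alone, above its 12.7 ± 1.46 FPKM in stroma alone.

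Lists that fell in stroma did not fall alike in endothelium. Of the interferon genes 10 were higher and 2 lower there, with a median of 0.32, and the effect in stroma was below that in endothelium for 26 of 30. Sterol synthesis genes were higher in 22 and lower in 1 of 23 there, with a median of 0.66, and the effect in stroma was below that in endothelium for all 23. Cell cycle genes fell in both, in 20 of 30 in endothelium with a median of -0.39, and for 24 the effect in stroma was the lower. Matrix genes were lower in 17 and higher in 5 of 32 in endothelium, and 18 had the higher effect in stroma. Angpt1 was listed at 0 in endothelium alone and averaged 0.967 ± 0.607 FPKM with HSPC (interaction -2.93 ± 0.26, adjusted p = 3.95e-06), while for Cxcl12 the interaction of -0.14 ± 0.33 was not called (adjusted p = 0.745). In a fit of all 24 libraries, which adds the spread of 4 further groups, 1625 genes were higher and 1966 lower in stroma. There the hypoxia list had 26 higher, the immediate-early list 14 higher, the interferon list 21 lower and the cell cycle list 24 lower, but sterol synthesis had 5 lower, the matrix list 2 higher, the amino acid stress list 6 higher, the osteoblast list 2 lower and the leptin receptor-positive program 4 lower. In the same fit the Notch list had 1 higher in place of 7, the stem and progenitor list 1 higher in place of 8, the Wnt list 4 lower in place of 9 and fatty acid synthesis 0 lower in place of 6.

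**Figure D5:**
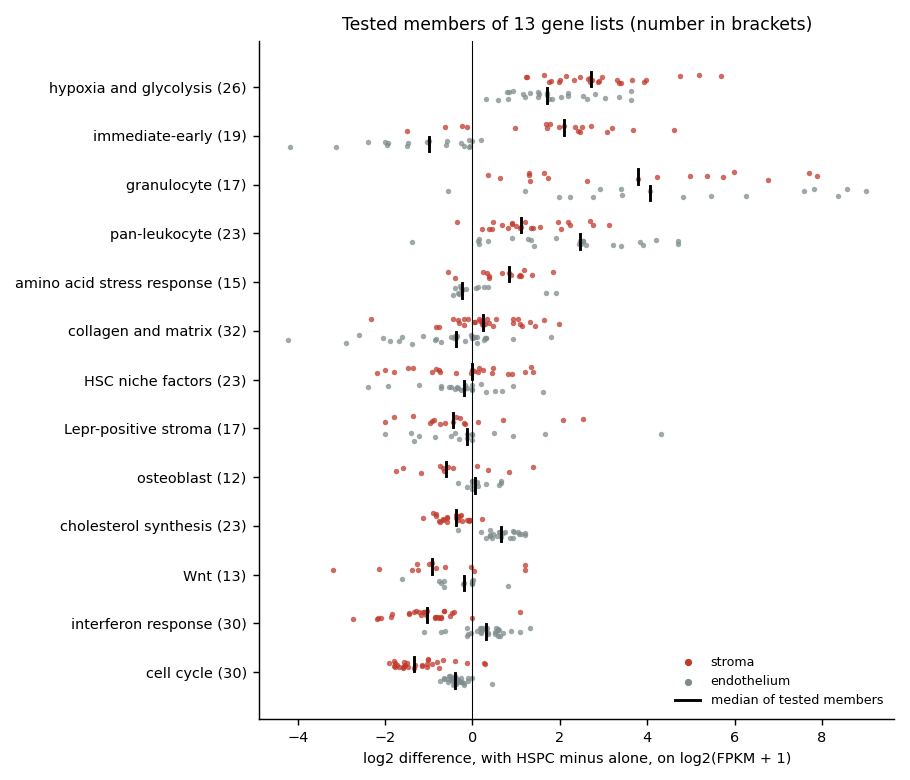
Log2 differences, HSPC minus alone, of the tested members of 13 gene lists in stroma and in endothelium, with each list's median marked. Hypoxia and glycolysis genes lie above 0 in both, most immediate-early genes above 0 in stroma and below in endothelium (medians 2.10 and -0.99), and most interferon and sterol synthesis genes below 0 in stroma and above in endothelium (medians -1.05 against 0.32 and -0.38 against 0.66).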

How the data were processed

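Polyadenylated RNA of cultured C57BL/6J marrow cells was extracted with Trizol and sequenced from TruSeq libraries as paired reads of 51 nt, per the labels' protocols. The deposited values are FPKM for 23879 gene symbols, which the authors made with TopHat and Cufflinks on mm9, per the submitters' processing notes, in which no version and no library-size step is given. FPKM are not counts, the low values gave no common step from which whole reads could be recovered (at most 3.772% of ratios of low values fell in 1 bin), and so the depth is unknown and no interval for counting error is given. An exact 0 can be a failed estimate, so a gene is said to be listed at 0.

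Values were used as deposited. Genes with at least 1 FPKM in at least 3 of the 12 co-culture libraries (14017 genes) were tested on log2(FPKM + 1) with limma 3.58.1 in R 4.3.3 (1 linear model with 4 groups, moderated with a trend, two-sided, Benjamini-Hochberg adjustment over all tested genes, threshold 0.05), including the interaction of HSPC with cell type. The test of at least 2-fold was limma's treat with a log2 change of 1. Genes with a mean under 1 FPKM in stroma alone were called near 0. Python 3.11.15 with matplotlib 3.10.9 drew the figures. The model was tested on 1 draw of simulated data with 200 changed genes among 14017. It recovered 100% of changes of log2 1 and 100% of log2 2, with 4.76% of its calls false. The changed genes were drawn only from well-expressed genes, so recovery at low levels was not tested. Far fewer genes were changed there than were called in the data.

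The comparison, the 39 gene lists (724 entries, 722 in the files) and the tests were chosen with earlier results of these data known. The text names Akt1, the 10 largest rises and falls of expressed genes whose libraries do not overlap and which reach 5 FPKM, the 10 largest rises of genes near 0, up to 4 called genes per list, taken by the size of their difference, and further list members. Clone, microRNA, small nucleolar and histone genes were left out of the rankings. Gsg1l, Fibcd1, Cacna1h, Cox4i2 and Igf2 in its role as neighbour of H19 were singled out after their values were seen. Alternatives were a pseudocount of 0.1, other filters, scalings and sets of libraries, weights per group, a replicate block, a 2-fold threshold, other borders of near 0 and leaving out each library in turn. Promoter windows of 250 bases came from RefSeq (GRCm38.p6) and were matched by symbol. Values of some list members are not reported here.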

Additional observations from a re-analysis of the deposited data

Results flagged for a closer look

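The effect of HSPC in stroma was above that in endothelium for 2951 genes and below it for 5045, by the interaction test of limma, and for 3863 and 3954 with scaling on stromal genes. Of 162 genes chosen by the rule for named genes 139 differed in this way, and 27 of these were called in opposite directions in the cell types. All differences here are the log2 effect in stroma minus the log2 effect in endothelium.

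The immediate-early genes Fosb (8.79), Fos (6.80), Atf3 (4.17) and Ctgf (3.61) rose in stroma and fell in endothelium. H19 (7.47) and the matrix and surface genes Fn1 (1.84), Spp1 (1.72) and Nt5e (2.90) likewise rose in stroma and fell in endothelium. The ligand gene Jag2 (2.50) and the small heat shock protein gene Hspb1 (2.49) did so too, as did Lmo2 (2.83), Procr (1.74), Gp1bb (1.26) and Zbtb46 (1.12), which are on blood cell lists and which endothelium expresses. The stromal call of Zbtb46 was lost without stroma alone replicate 1 or 2 or replicate 3 with HSPC (adjusted p = 0.0819 to 0.101, limma).

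The opposite order, lower in stroma and higher in endothelium, held for Akt1 (-1.08), the secreted factor genes Angpt1 (-2.93), Ccl2 (-2.80) and Bmp2 (-2.41), and the class II genes Ciita (-2.24) and H2-DMa (-1.20). In endothelium the mean of Angpt1 stayed under 1 FPKM even with HSPC, so its rise there is one of very low values. The stromal call of Ciita was lost when each of the 6 stromal libraries in turn was left out (adjusted p = 0.0585 to 0.11, limma), and that of H2-DMa without stroma alone replicate 3 (adjusted p = 0.0604). The opposite order also held for sterol and fatty acid synthesis genes, namely Acat2 (-1.76), Cyp51 (-1.58), Mvk (-1.30), Scd1 (-1.55), Elovl6 (-1.25) and Fasn (-0.81), and for the chaperone gene Hsph1 (-1.28). The causes of these differences were not tested.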

How the results depend on the processing

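Of the values of named genes under 23 alternatives 3544 kept their direction and their call, 160 kept the direction and lost the call, and 0 changed sign, with 46 calls lost in the fit of all 24 libraries and 67 under the test of at least 2-fold. With all 24 libraries 1625 genes were higher and 1966 lower (expressed genes 1372 and 1932), the interaction had 826 above and 1450 below 0, and endothelium had 1268 higher and 584 lower. Under the test of at least 2-fold the counts were 439 and 318 (expressed 319 and 318, near 0 in stroma alone 120 and 0), 345 and 358 for the interaction and 360.0 and 162 for endothelium. Genes near 0 numbered 166 lower with no filter, 196 higher and 21 lower with a filter at 5 FPKM, 218 higher and 0 lower with the 6 stromal libraries only, 221 higher and 0 lower with a border at 0.1 FPKM, and 710.0 higher and 484 lower with a border at 5 FPKM. The cause of these shifts was not tested, other than that the test of at least 2-fold is stricter and the borders move genes between the classes by construction.

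Leaving out 1 library gave 3153 to 3684 higher and 4402 to 4940 lower, among expressed genes 2868 to 3395 and 4371 to 4891, and among genes near 0 285 to 369 and 31 to 49. The interaction ranged over 2666 to 3143 above and 4518 to 5238 below 0, and endothelium over 3292 to 4398 higher and 2321 to 3230 lower. Calls lost without some library were those of Cxcl2, Psmb9, Ciita, Zbtb46, Ppbp, H2-DMa and C1ra. The share of higher among called genes was 42%, and 46.3%, 51.2% and 43.9% after trimmed-mean scaling, scaling on stromal genes and quantile normalization. For the interaction the counts above and below 0 were 3513 and 4379 with trimmed-mean scaling, and in endothelium 3488 genes were higher and 3441 lower with scaling on stromal genes.

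The deviations of same-numbered libraries from their group means correlated at 0.03, 0.01 and 0.08 and of others at -0.09 to 0.05. With 3 libraries per group these values cannot show whether the numbers pair libraries. With a replicate block 3535 genes were higher and 4884 lower, and all 162 named genes kept their call. Since the number of reads is unknown, no difference of low values can be set against counting error.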

Other observations

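Genes that are often used to normalise expression were not level between the groups. The genes given here were picked after their values were seen. In stroma Actb, cytoplasmic actin, fell by 0.94 with HSPC and B2m, the light chain of MHC class I, by 0.36. Gapdh, a glycolytic enzyme with near-identical copies, rose by 2.75, Hprt by 0.93, Rplp0 by 0.42, Eef1a1 by 0.36 and Tuba1b by 0.20. Tbp (0.11) and Ppia (-0.02) were not called.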
